A study of Mus musculus with 10 samples.

Results

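Fatty acid oxidation and ketone body use were followed through 38 genes on arrays of mouse hippocampus, with PGC-1αf/f mice as controls and nPGC-1α mice as the overexpressing group. The genes were taken by name from the 17597 genes that the arrays measured, by their place in the pathway. Earlier results of these data were known when they were chosen. By role they were 5 acyl-CoA synthetases, 23 genes of the mitochondrial pathway, 4 of the peroxisomal pathway, 2 whose products work in both organelles, the neuronal carnitine palmitoyltransferase Cpt1c, and 3 genes of ketone body use. PGC-1αf/f mice carry a PGC-1α transgene at the Rosa26 locus, kept silent by a floxed stop cassette and followed by an eGFP reporter. nPGC-1α mice carry the same transgene together with Cre recombinase under the Eno2 promoter, which is active in neurons, so that the cassette is removed there and PGC-1α is overexpressed. Both groups are C57BL/6 males of 12 weeks by the labels, with no other treatment, and each of the 10 arrays held total RNA of 1 hippocampus sample, 5 per group. The comparison asks how overexpression of PGC-1α in neurons altered these genes under basal conditions.

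Fatty acids enter the pathway as acyl-CoA esters made by the synthetases. The carnitine shuttle carries long chains into the mitochondrion, where each round of β-oxidation runs through a dehydrogenase, a hydratase, a second dehydrogenase and a thiolase, and the electrons pass through electron transfer flavoprotein to the respiratory chain. Peroxisomes shorten very long and branched chains by a parallel set of enzymes. Neurons draw little of their energy from fatty acids and can use ketone bodies instead, whereas astrocytes oxidise fatty acids. PGC-1α is a transcriptional coactivator that works with the nuclear receptors PPARα and ERRα and with NRF1, and it is known to raise fatty acid oxidation genes in muscle, liver and heart.

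The promoters of the genes on which the results turn are shown first. RefSeq (GRCm38.p6) gave a start site for 32 of the 38 genes, and Acaa2, Acad9, Acat1, Cpt1b, Decr1 and Hsd17b4 had no entry. The 250 bases before the start were searched on both strands for 3 motifs. The ERR element TNAAGGTCA was found in 1 of the 32 genes, against 1.30% of 27025 genes. The NRF1 element, GCGCA and GCGC with 1 free base between them, was found in 3 of the 32, all mitochondrial, against 4.23% of genes. The DR1 element, 2 copies of AGGTCA with 1 free base between them, which PPARα binds, was found in none of the 32 and in 0.0407% of genes. DR1 ends in the AGGTCA that also closes the ERR element. A match says only that these letters are present. The exact DR1 letters are so rare that their absence from the 32 genes says nothing about PPARα binding. The sequences below are the promoters of the 2 genes with the lowest p-values, Acsl6 and Bdh1 (which has 2 start sites), and of the electron transfer genes Etfb and Etfdh, each written 5′ to 3′ on the strand of the gene with the motif in capitals.
Acsl6, chr11:54303574-54303823, plus strand: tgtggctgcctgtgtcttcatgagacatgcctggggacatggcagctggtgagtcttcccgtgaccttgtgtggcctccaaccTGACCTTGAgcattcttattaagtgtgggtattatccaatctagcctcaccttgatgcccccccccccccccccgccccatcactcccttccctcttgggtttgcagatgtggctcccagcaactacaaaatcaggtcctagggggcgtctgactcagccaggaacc
Bdh1, chr16:31422047-31422296, plus strand: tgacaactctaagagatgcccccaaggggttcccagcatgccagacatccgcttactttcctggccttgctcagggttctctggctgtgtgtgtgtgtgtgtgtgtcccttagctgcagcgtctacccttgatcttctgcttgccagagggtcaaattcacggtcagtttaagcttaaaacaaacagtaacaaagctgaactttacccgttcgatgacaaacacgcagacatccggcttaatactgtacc
Bdh1, chr16:31428503-31428752, plus strand: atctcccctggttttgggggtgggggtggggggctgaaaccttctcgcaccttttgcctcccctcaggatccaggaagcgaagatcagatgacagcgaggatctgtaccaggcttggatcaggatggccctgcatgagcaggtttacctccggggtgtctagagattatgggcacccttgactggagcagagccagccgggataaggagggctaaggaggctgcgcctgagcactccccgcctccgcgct
Etfb, chr7:43443822-43444071, plus strand: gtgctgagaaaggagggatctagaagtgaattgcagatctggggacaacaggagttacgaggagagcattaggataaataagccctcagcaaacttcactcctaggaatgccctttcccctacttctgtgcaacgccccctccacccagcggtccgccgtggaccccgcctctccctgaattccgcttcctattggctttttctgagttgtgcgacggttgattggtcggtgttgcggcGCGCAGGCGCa
Etfdh, chr3:79628768-79629017, minus strand: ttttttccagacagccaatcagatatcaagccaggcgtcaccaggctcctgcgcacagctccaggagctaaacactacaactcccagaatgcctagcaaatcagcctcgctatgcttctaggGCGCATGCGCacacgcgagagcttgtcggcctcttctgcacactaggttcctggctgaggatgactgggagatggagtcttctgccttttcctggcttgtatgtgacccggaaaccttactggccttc
In Acsl6 the ERR element, read on the opposite strand as TGACCTTGA, lay 167 to 159 bases before the start, and neither Bdh1 promoter held any of the 3 motifs. The NRF1 element lay 11 to 2 bases before the start in Etfb, 128 to 119 in Etfdh and 44 to 35 in Acad10, whose promoter is not shown.

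Some properties of the arrays have to be known before the values. Levels are log2 of the processed intensity relative to the 75th percentile of the same array, so that 0 is that percentile, and every difference is nPGC-1α minus PGC-1αf/f on this log2 scale. The share of spots above background was lower in nPGC-1α mice (71.2% ± 2.57, SD, n = 5) than in PGC-1αf/f mice (79.0% ± 2.79, SD, n = 5; exact permutation p = 0.00794, two-sided), yet none of the 38 genes fell to background on any of the 10 arrays. All mice are labelled male, but transcripts of the Y-linked genes Uty and Kdm5d were well above background on 4 arrays only, those of nPGC-1α replicates 1, 3 and 5 and of PGC-1αf/f replicate 1. This split is unequal between the groups, and the 6 arrays without these transcripts were 4 of PGC-1αf/f and 2 of nPGC-1α mice. Results that turn on the split are given with and without the 4 arrays. Slide 1 held replicates 1 to 4, and slide 2 held replicate 5, of either group. On slide 1 the PGC-1αf/f arrays lay in row 1 and the nPGC-1α arrays in row 2, so group and row cannot be told apart there. On slide 2 both arrays lay in row 1. Mean array noise was 13.79 in nPGC-1α and 6.32 in PGC-1αf/f mice (exact permutation p = 0.00794). The mean floor level was -6.26 and -7.28 (exact permutation p = 0.0159). The part of row, noise and floor in the differences was not tested. The labels call the cells neurons, while the tissue is whole hippocampus, and every tested marker of neurons, astrocytes, oligodendrocytes, microglia and endothelium was above background throughout. Fewer cells of a type and less RNA per cell cannot be told apart in such samples. Ppargc1a itself, the gene of PGC-1α, stood at 2.20 ± 0.08 and 2.20 ± 0.11 (mean ± SD, n = 5 each), and whether its probe reads the transgene was not examined.

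Across the 38 genes, none passed an adjusted p of 0.05 in limma, for which the background was 0.00568% of the 17597 genes tested, and the lowest adjusted p was 0.233. At an unadjusted p of 0.05, 2 of the 38 were called by limma, against 8.21% of all genes, and 2 by the exact Mann-Whitney test, against 5.76% of all genes. Both genes limma called, Acsl6 and Bdh1, were higher in nPGC-1α mice, where the background in that direction was 3.18%, and none was lower, where it was 5.03%. The groups did not overlap in 1 of the 38, Bdh1, against 2.36% of all genes. By sign alone 24 of the 38 were lower in nPGC-1α mice, and 56.7% of all genes were lower. The median difference was -0.05 for the 38 genes and -0.02 for all genes, and with quantile normalization it was 0.02 and 0.04. The intervals were narrow: 36 of the 38 genes had a 95% interval that lay within 1.5-fold in either direction, against 76.4% of all genes and 95.5% of the 7508 genes whose level was above the 75th percentile. The exceptions were Acsl6 and Slc25a20. Of the 16 members with more than 1 tested probe, 11 had probes that differed in sign, and none of the 17 probes not used here passed an unadjusted p of 0.05.

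**Figure D1:**
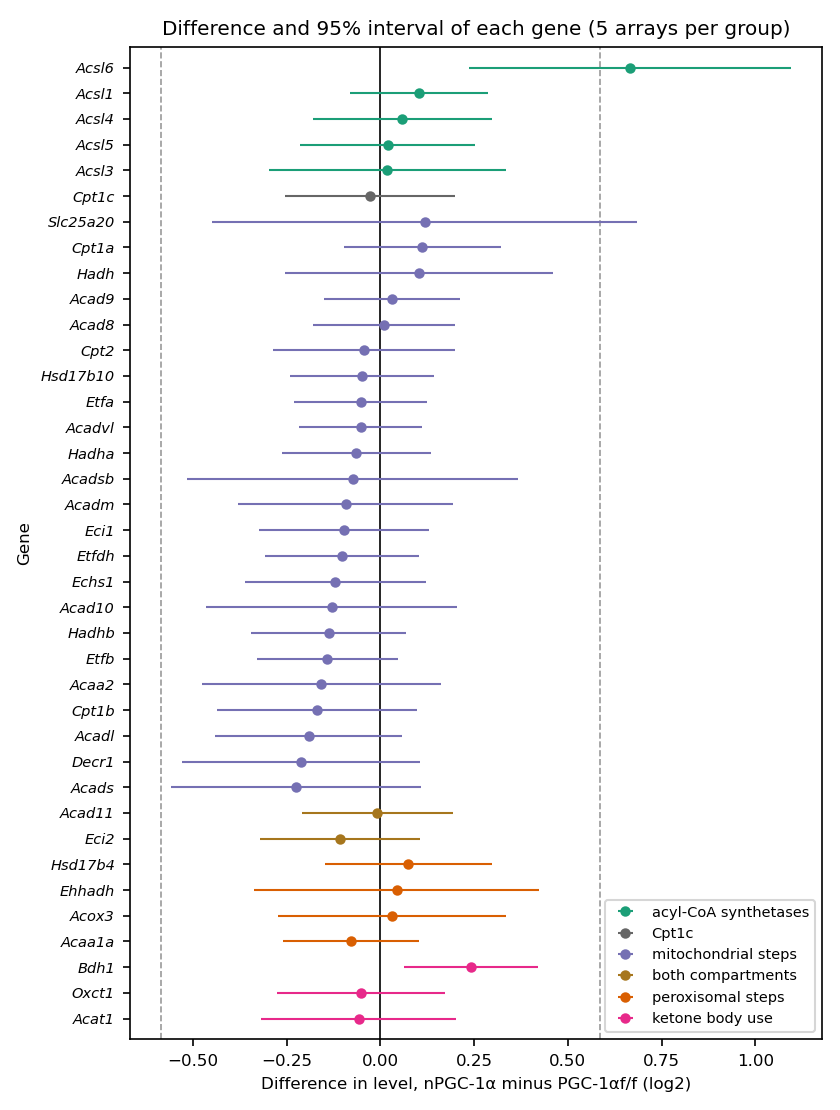
Difference in level (log2, nPGC-1α minus PGC-1αf/f) of each of the 38 genes, with points for the limma estimate, bars for its 95% interval and colours for the role. Dashed lines mark 1.5-fold. The bars of Acsl6 and Bdh1 alone miss 0, and those of Acsl6 and Slc25a20 alone cross a dashed line.

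The acyl-CoA synthetases open the pathway, and their 5 differences were all above 0 at a median of 0.06, as they were with quantile normalization, median scaling and normexp (in 11 of the other settings 1 of them, Acsl3, Acsl4 or Acsl5, was below 0), but only Acsl6, which is expressed in brain and favours polyunsaturated chains, passed an unadjusted p of 0.05. With the tested probe Acsl6 stood at -3.76, -3.92, -3.13, -3.11 and -4.07 in PGC-1αf/f mice and -2.91, -2.99, -2.80, -2.78 and -3.18 in nPGC-1α mice. All nPGC-1α values lay above the PGC-1αf/f mean, but the groups overlapped, because PGC-1αf/f replicates 3 and 4 lay above nPGC-1α replicate 5. The difference was 0.67 (SE 0.19, limma adjusted p = 0.233), or 1.59-fold with a 95% interval of 1.18 to 2.13, and the exact permutation test gave p = 0.0238. It was 0.61 on slide 1 and 0.89 on slide 2.

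A second Acsl6 probe gave another answer. This brighter probe was marked as an outlier spot on 7 arrays and so was not tested. With those spots kept, it read 1.59, 1.94, 2.04, 2.24 and 2.02 in PGC-1αf/f mice and 2.08, 1.85, 2.18, 2.00 and 2.09 in nPGC-1α mice. The groups overlapped throughout, with a difference of 0.08 (SE 0.12, exact permutation p = 0.587). The Acsl6 result therefore rests on 1 dim probe. Among the 6 arrays without Y-linked transcripts, 4 of PGC-1αf/f and 2 of nPGC-1α mice, the tested probe differed by 0.68 (SE 0.32).

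None of the other synthetases passed an unadjusted p of 0.05. Acsl1, the main form for fatty acids sent to oxidation, stood at 1.65, 1.69, 1.79, 1.87 and 1.66 in PGC-1αf/f mice and 1.85, 1.81, 1.79, 1.75 and 1.98 in nPGC-1α mice. All 5 nPGC-1α values were above the PGC-1αf/f mean, yet the groups overlapped and the difference was 0.10 (SE 0.08), with an interval of 0.95-fold to 1.22-fold. Acsl3, which serves lipid droplets, differed by 0.02, Acsl4, which prefers arachidonate, by 0.06, and Acsl5, found at the mitochondrial outer membrane and the ER, by 0.02. Other probes of Acsl1, Acsl3 and Acsl4 gave differences of the opposite sign, between -0.14 and -0.02.

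The carnitine shuttle held 2 genes with differences above 0 and 2 below. Cpt1a, the outer membrane transferase at which entry is controlled, stood at -0.06, 0.16, 0.07, 0.18 and -0.06 in PGC-1αf/f mice and 0.12, 0.19, 0.39, 0.05 and 0.10 in nPGC-1α mice. Of the nPGC-1α values 4 lay above the PGC-1αf/f mean, replicate 3 highest, and the difference of 0.11 (SE 0.10) had an interval of 0.93-fold to 1.25-fold. Cpt2, which returns the acyl group to CoA inside the mitochondrion, stood at -0.49, -0.36, -0.73, -0.71 and -0.73 in PGC-1αf/f mice and -0.67, -0.63, -0.42, -0.84 and -0.68 in nPGC-1α mice. The groups overlapped, with PGC-1αf/f replicate 2 highest and nPGC-1α replicate 4 lowest, and the difference was -0.04 (SE 0.11).

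Slc25a20, the carnitine-acylcarnitine carrier, was the most variable of the shuttle genes at -2.87, -3.04, -2.50, -2.15 and -3.33 in PGC-1αf/f mice and -3.03, -2.48, -1.97, -2.71 and -3.10 in nPGC-1α mice. Its difference of 0.12 (SE 0.26) was the third largest above 0 among the 38 genes and left an interval of 0.73-fold to 1.61-fold. Cpt1b, the muscle form, was dim on these arrays and differed by -0.17 (SE 0.12). Cpt1c, a neuronal protein of the ER that hardly acts as a transferase, differed by -0.03 (SE 0.10) with the tested probe and by 0.29 (SE 0.15) with a second one.

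Of the 8 acyl-CoA dehydrogenases, which take the first step of each round, 6 were lower in nPGC-1α mice (5 with quantile normalization and 4 with normexp, which lowered the share of all genes below 0 from 56.7% to 37.7% and 32.5%) and none passed. Acadvl, which handles very long chains, stood at 1.57, 1.55, 1.51, 1.48 and 1.58 in PGC-1αf/f mice and 1.61, 1.44, 1.43, 1.5 and 1.44 in nPGC-1α mice. The groups overlapped and differed by -0.05 (SE 0.07), an interval of 0.86-fold to 1.08-fold. Acadl, for long chains, stood at 1.85, 1.59, 1.29, 1.41 and 1.57 in PGC-1αf/f mice and 1.5, 1.36, 1.27, 1.21 and 1.41 in nPGC-1α mice. All 5 nPGC-1α values were below the PGC-1αf/f mean, with PGC-1αf/f replicate 1 highest, and the difference was -0.19 (SE 0.11, exact permutation p = 0.103).

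Acads, for short chains, had the lowest difference of the 38 genes. It stood at -1.14, -1.14, -1.55, -1.71 and -1.85 in PGC-1αf/f mice and -1.76, -1.69, -1.48, -1.72 and -1.86 in nPGC-1α mice. PGC-1αf/f replicates 1 and 2 were equal at the top, apart from the other 8 arrays, and the difference was -0.22 (SE 0.15, exact permutation p = 0.230). Acadm, for medium chains, had values on 7 arrays and differed by -0.09 (SE 0.12). Acadsb, which acts on branched short chains, differed by -0.07, Acad8, a dehydrogenase of valine breakdown, by 0.01, Acad9, which also assembles respiratory complex I, by 0.03, and Acad10 by -0.13. Acadsb differed between slides more than between groups, with -2.03 and -1.84 on slide 2 and -1.35 to -1.06 on slide 1.

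Among the 6 genes of the later mitochondrial steps, 5 were lower in nPGC-1α mice (3 with quantile normalization and 2 with normexp, where 37.7% and 32.5% of all genes were lower) and none passed. Hadha, the α subunit of the trifunctional protein, stood at -1.17, -1.10, -0.99, -1.18 and -0.97 in PGC-1αf/f mice and -1.19, -1.07, -1.05, -1.08 and -1.34 in nPGC-1α mice. The groups overlapped, with nPGC-1α replicate 5 lowest, and the difference was -0.06 (SE 0.09). Hadhb, the β subunit, differed by -0.14 (SE 0.09) with 4 values per group, and its second probe by 0.25. Acaa2, the mitochondrial thiolase, stood at 1.53, 1.27, 0.83, 0.95 and 1.07 in PGC-1αf/f mice and 1.01, 1.04, 1.24, 0.78 and 0.79 in nPGC-1α mice. PGC-1αf/f replicate 1 was highest and the difference was -0.16 (SE 0.15). Echs1, the short-chain hydratase, differed by -0.12, Hsd17b10, a dehydrogenase of isoleucine breakdown and a part of mitochondrial RNase P, by -0.05, and Hadh, the dehydrogenase for short and medium chains, by 0.10.

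Both enzymes for unsaturated chains were lower in nPGC-1α mice, with this and every other setting, and neither passed. Decr1, the dienoyl-CoA reductase, stood at 1.13, 0.85, 0.49, 0.41 and 0.37 in PGC-1αf/f mice and 0.45, 0.44, 0.52, 0.34 and 0.44 in nPGC-1α mice. PGC-1αf/f replicates 1 and 2 stood above every other array, while PGC-1αf/f replicates 3 to 5 lay within the nPGC-1α range, and the difference was -0.21 (SE 0.14, exact permutation p = 0.270). Eci1, the mitochondrial enoyl-CoA isomerase, differed by -0.10 (SE 0.10).

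The 3 electron transfer genes were all lower in nPGC-1α mice, with this and each of the other 26 settings, at -0.05 for Etfa, -0.14 for Etfb and -0.10 for Etfdh, and none passed. The setting that averaged the probes of a gene is no check for Etfa and Etfb, whose second probes lacked values on some arrays. It gave -0.18 for Etfb, beyond either of its probes. Etfb, the β subunit of the flavoprotein, stood at 3.03, 2.96, 2.86, 2.93 and 2.81 in PGC-1αf/f mice and 2.94, 2.78, 2.80, 2.70 and 2.67 in nPGC-1α mice. Of the 5 nPGC-1α values 4 lay below the lowest PGC-1αf/f value, and the exact permutation test gave p = 0.0476, while limma gave an adjusted p of 0.538 for the difference of -0.14 (SE 0.09). The Etfb difference was -0.05 with quantile normalization, -0.07 with median scaling, -0.01 with normexp and -0.08 with the authors' values. In these settings 37.7%, 38.3%, 32.5% and 50.8% of all genes were lower. Without nPGC-1α replicate 1 it was -0.18. The second Etfb probe differed by -0.05, while a second tested probe of Etfa differed by 0.35 (SE 0.33). Etfdh, the oxidoreductase that passes the electrons to ubiquinone, had no value for replicate 1 of either group, where its spot was marked as an outlier, and stood at 1.36, 1.30, 1.35 and 1.29 in PGC-1αf/f mice and 1.20, 1.34, 1.14 and 1.22 in nPGC-1α mice. Its difference was -0.10 (SE 0.09, exact permutation p = 0.0857). Etfb and Etfdh hold the NRF1 element shown above, as does Acad10, at -0.13. Of the 23 mitochondrial genes 18 were lower, and a link between motif and difference was not tested.

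Taking the 23 mitochondrial genes as a list, 18 were lower in nPGC-1α mice with a median difference of -0.09, against 56.7% lower and a median of -0.02 for all genes, but the number lower was 14 with quantile normalization, 14 with median scaling and 12 with normexp, where 37.7%, 38.3% and 32.5% of all genes were lower. Relative to the median of all genes, the list lay at -0.07 with the scaling used here and at -0.11 to -0.03 under the alternatives. None of the 23 passed an unadjusted p of 0.05. The median deviation of the 23 genes from their own means was 0.14, 0.14, -0.04, -0.03 and 0.02 on the PGC-1αf/f arrays and -0.04, -0.04, 0.06, -0.06 and -0.08 on the nPGC-1α arrays. PGC-1αf/f replicates 1 and 2 thus stood above the other 8 arrays, and PGC-1αf/f replicates 3 to 5 lay within the nPGC-1α range. Without PGC-1αf/f replicate 1 the median difference was -0.06, and without nPGC-1α replicate 5 it was also -0.06.

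Markers of cell types also varied between these arrays. The median deviation of the 8 astrocyte markers was 0.32 on PGC-1αf/f replicate 1 and 0.11 on replicate 2, against -0.16 to 0.12 on the other 8 arrays. Replicate 2 thus lay within the range of the others. That of the 6 excitatory neuron markers was -0.42 and -0.17 on these 2 arrays, against -0.09 to 0.23 on the others. Some other lists departed further. On PGC-1αf/f replicate 1 the oligodendrocyte markers stood at -0.61 and the ependymal ones at -0.91. On PGC-1αf/f replicate 2 the habenula markers stood at 1.79 and the ependymal ones at 0.66. The hippocampal subfield markers stood at -0.26 there, their lowest on any array. The choroid plexus markers stood at 0.84 there, within the -1.16 to 2.14 of the other arrays. The blood markers stood at -1.18 and 1.08 on PGC-1αf/f replicates 1 and 2, within the -1.40 to 1.25 of the other arrays. Markers of inhibitory neurons, microglia and endothelium lay between -0.03 and 0.10 on both arrays. The part of these cell types in the mitochondrial values was not tested.

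**Figure D2:**
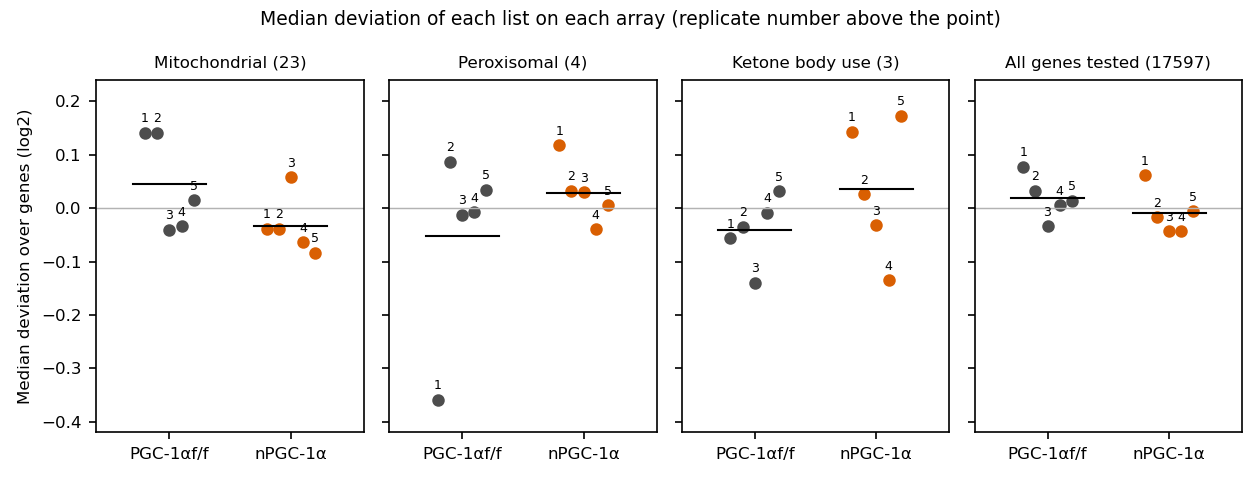
Median deviation (log2) of the mitochondrial, peroxisomal and ketone body genes and of all genes tested on each array, with each gene set to its mean over both groups. Points are arrays with the replicate number above, and bars are group means. PGC-1αf/f replicates 1 and 2 are highest for the mitochondrial genes at 0.14, and PGC-1αf/f replicate 1 is lowest for the peroxisomal genes at -0.36, over the 3 that had a value there.

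The peroxisomal genes did not share the sign of the mitochondrial ones, with 3 of 4 above 0 and a median of 0.04, but the sign of the median turned with the arrays used. Hsd17b4, the bifunctional enzyme for branched and very long chains, stood at 1.19, 1.69, 1.56, 1.56 and 1.55 in PGC-1αf/f mice and 1.69, 1.57, 1.58, 1.53 and 1.55 in nPGC-1α mice. PGC-1αf/f replicate 1 lay apart at the bottom, and the difference was 0.07 (SE 0.10). Acaa1a, the peroxisomal thiolase, stood at 2.44, 2.31, 2.24, 2.24 and 2.34 in PGC-1αf/f mice and 2.37, 2.19, 2.19, 2.13 and 2.29 in nPGC-1α mice. Its groups overlapped and differed by -0.08 (SE 0.08), with 0.32 for a second probe. Acox3, an oxidase for branched chains, differed by 0.03 with 7 values and by 0.29 (SE 0.14) with a second probe, and Ehhadh, the other bifunctional enzyme, by 0.04.

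Without PGC-1αf/f replicate 1 the median of the 4 genes was -0.03 and 3 of 4 were lower, without nPGC-1α replicate 3 it was -0.01 over 3 genes, and among the 6 arrays without Y-linked transcripts it was -0.07. The 18 tested peroxisomal genes of the wider list, such as Abcd3, a transporter of the peroxisomal membrane (-0.12), had a median of -0.05 with 11 lower and none past an unadjusted p of 0.05. Of all genes, 56.7% were lower and 8.21% were past that p. Eci2 and Acad11, placed in both organelles, differed by -0.11 (SE 0.10) and -0.01 (SE 0.09).

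Of the ketone bodies taken up, β-hydroxybutyrate is oxidised by Bdh1 to acetoacetate, the other one used. Acetoacetate is activated by Oxct1, and the product is split by Acat1. Bdh1 was the only one of the 38 genes whose groups did not overlap, at 0.86, 0.67, 0.83, 0.84 and 0.90 in PGC-1αf/f mice and 1.1, 0.97, 1.12, 0.98 and 1.14 in nPGC-1α mice. The highest PGC-1αf/f value lay below the lowest nPGC-1α value. The means were 0.82 ± 0.09 and 1.06 ± 0.08 (SD, n = 5 each), a difference of 0.24 (SE 0.08), or 1.18-fold with a 95% interval of 1.04 to 1.34. The exact permutation test gave p = 0.00794, the smallest that 5 against 5 arrays can give, but limma's adjusted p over all probes was 0.288. It differed by 0.24 on slide 1 and 0.24 on slide 2, and a second Bdh1 probe by 0.15.

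The size of the Bdh1 difference was 0.29 to 0.33 under quantile normalization, median scaling and normexp, where the spread was wider and limma's unadjusted p was 0.0554 to 0.0987. Among the 6 arrays without Y-linked transcripts, 4 of PGC-1αf/f and 2 of nPGC-1α mice, it was 0.17 (SE 0.12). Markers of oligodendrocytes were higher in the same group, 6 of 7 with a median difference of 0.32 and none past an unadjusted p of 0.05. The median deviation of these 7 markers ranged from -0.61 to 0.03 in PGC-1αf/f mice and from -0.36 to 0.38 in nPGC-1α mice, and their part in the Bdh1 result was not tested.

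The 2 enzymes downstream of Bdh1 showed no such separation. Oxct1, the succinyl-CoA transferase without which ketone bodies cannot be burnt, stood at 3.27, 2.99, 2.81, 2.98 and 3.02 in PGC-1αf/f mice and 3.13, 2.90, 2.91, 2.85 and 3.02 in nPGC-1α mice. Replicate 1 was highest in both groups, and the difference of -0.05 (SE 0.10) had an interval of 0.83-fold to 1.13-fold. Acat1, the acetoacetyl-CoA thiolase, stood at 0.65, 0.67, 0.57, 0.71 and 1.08 in PGC-1αf/f mice and 0.48, 0.79, 0.68, 0.57 and 0.88 in nPGC-1α mice. PGC-1αf/f replicate 5 lay above all other arrays, and the difference was -0.06 (SE 0.12).

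**Figure D3:**
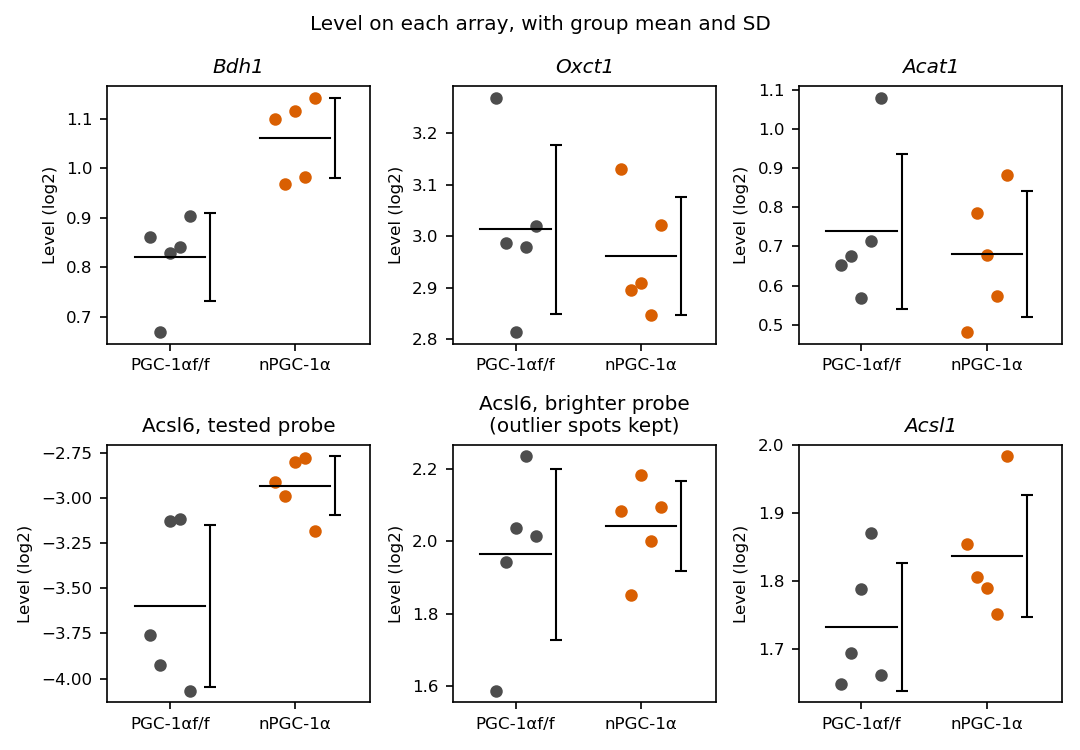
Level (log2 relative to the 75th percentile of the array) of the ketone body genes Bdh1, Oxct1 and Acat1 and of Acsl6 and Acsl1 on each array, with Acsl6 shown for both probes. Points run from replicate 1 to 5 from left to right, lines are group means and error bars are SD. The groups are apart for Bdh1, with PGC-1αf/f values up to 0.90 and nPGC-1α values from 0.97, and overlap in the other panels.

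Of 65 further genes of fatty acid and ketone body metabolism and its control, 60 were tested. None passed an adjusted p of 0.05 in limma. At an unadjusted p of 0.05, 1 of the 60 was higher, against 3.18% of all genes, and 3 were lower, against 5.03%. Acat2 was not named by any probe, and Acot2, Fabp7 and Slc16a1 lost their values to outlier spots. Slc16a3, the monocarboxylate transporter MCT4 of astrocytes, stood at -1.95, -2.60, -2.53, -2.68 and -2.59 in PGC-1αf/f mice and -1.53, -1.92, -1.44, -1.89 and -1.55 in nPGC-1α mice. Slc16a3 was the only 1 of the 60 whose groups did not overlap, against 2.36% of all genes. PGC-1αf/f replicate 1 came nearest to the nPGC-1α range, and the difference was 0.80 (SE 0.16, limma adjusted p = 0.106, exact permutation p = 0.00794).

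Slc27a4, a fatty acid transport protein, stood at -1.13, -1.10, -1.25, -1.24 and -1.11 in PGC-1αf/f mice and -1.53, -1.50, -1.62, -1.51 and -1.18 in nPGC-1α mice. This difference of -0.30 (SE 0.10, limma adjusted p = 0.267) was met by 0.30 in the opposite direction from a second probe, and the mean of both was 0.00. Pdk4, the kinase that holds pyruvate back from oxidation and a known target of PPARα, differed by -0.35 (SE 0.15, limma adjusted p = 0.373). Angptl4, an inhibitor of lipoprotein lipase, differed by -0.37 (SE 0.15, limma adjusted p = 0.369). The Slc27a4, Pdk4 and Angptl4 results depended on the processing. With quantile normalization, median scaling and normexp, limma's unadjusted p was 0.233 to 0.342 for Pdk4 and 0.132 to 0.279 for Angptl4. For Slc27a4 it was 0.210 to 0.404. The differences there were -0.28 to -0.27, -0.31 to -0.28 and -0.23 to -0.19. Pdk4 and Angptl4 also lost the unadjusted threshold without some single arrays, and kept it without others. Of the partners of PGC-1α, Ppara differed by -0.18 (SE 0.12), Esrra by -0.07 (SE 0.10) and Esrrg by 0.11 (SE 0.09).

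The mitochondrial and peroxisomal medians were followed through every setting tried. The mitochondrial median was below that of all genes in each of them. The peroxisomal median was above 0 in most and below 0 with the replicate number as a block, on the arrays without Y-linked transcripts, and without PGC-1αf/f replicate 1 or nPGC-1α replicate 3. Relative to the median of all genes, the peroxisomal median lay at 0.06 with the scaling used here. On that reference it was 0.007 with quantile normalization, -0.008 with median scaling and 0.02 with normexp. It was -0.04 on the arrays without Y-linked transcripts and -0.01 without PGC-1αf/f replicate 1.

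**Figure D4:**
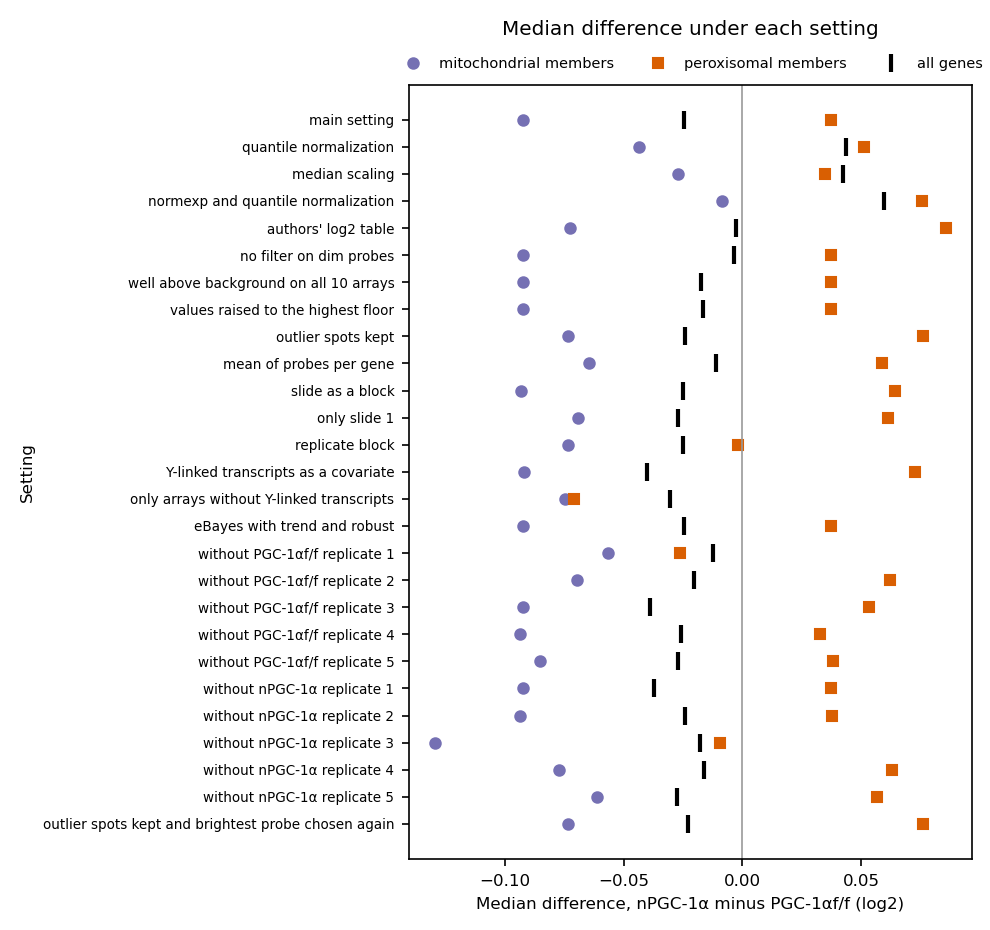
Median difference (log2, nPGC-1α minus PGC-1αf/f) of the mitochondrial and peroxisomal genes and of all genes under each processing setting. Circles and squares are the 2 lists and vertical ticks are all genes. The circles lie left of the ticks in every row, while the squares cross 0 and lie on either side of the ticks.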

How the data were processed

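Total RNA of hippocampus was labelled with Cy3 and hybridised to Agilent mouse arrays, 1 sample per array. The labels name no litter or extraction, so p-values measure the spread between these 10 samples. Per the file headers, the deposited processed intensity of each spot came from Feature Extraction 11.5.1.1 after background subtraction and spatial detrending, with no scaling between arrays; the methods name another version. A deposited table of log2 values, made by the authors with GeneSpring, served as an alternative. Its columns correlated with their own arrays at 0.9987 or above, its scale is log2 and its column medians were 9.92 to 9.93, but its centring is not given in the sources used here.

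Control and outlier spots were left out, repeated spots were averaged as log2, and each array was set to its own 75th percentile. A probe was kept if 1 group had it well above background throughout and each group held at least 3 values (39142 probes). Symbols came from RefSeq (GRCm38.p6) through accessions, and the brightest tested probe stood for a gene. Differences went through lmFit and eBayes in limma 3.58.1 (R 4.3.3, statmod 1.5.0), two-sided, without covariates, and adjusted by the Benjamini-Hochberg method over all probes kept. Exact permutation tests used all 252 splits of 5 against 5 arrays, or fewer where values were missing. Python 3.11.15 and pandas 2.3.3 read the files.

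The members, gene lists and tests were chosen with earlier results of these data known. Levels on every array are given for Cpt1a, Cpt2, Acadvl, Hadha, Acaa2, Etfdh, Acaa1a, Hsd17b4, Oxct1, Bdh1 and Acat1, for members past an unadjusted p of 0.05 and for the 3 largest differences in each direction. Acsl1 and Etfb were added after their values were seen. Further genes of the pathway were named where their unadjusted p was below 0.05, and a few others for their role. On simulated data for this comparison (39142 probes, 200 changed), the test found 74.5% of the changed probes when the log2 change was 1 and 94.5% when it was 2, with 0 calls where nothing was changed. The simulated noise was independent between probes. Smaller changes were not simulated, and the largest difference among the 38 genes was 0.67, so these rates do not cover changes of that size. The alternatives changed the scaling, the background correction, the filter or the variance model, took the authors' log2 values, put slide, replicate number or Y-linked transcripts in the fit, or left out an array. Another averaged the tested probes of each gene. Where a probe lacked values on some arrays, this mean mixed probes of unlike level. For Hadhb it gave 0.49, beyond either probe (-0.14 and 0.25). The planned normexp correction was run on median pixel intensities. Values of a few genes of the wider list are not reported here.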

Additional observations from a re-analysis of the deposited data

Results flagged for a closer look

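In each group of 4 or 5 values of the named genes and lists, the most distant array was compared with the spread of its group. Of 91 groups examined 13 held an array apart, where about 5 would be so by chance. The groups share the same 10 arrays, and single genes also count in the median of their list, so they are not independent. Acadsb was low on both arrays of slide 2, at -2.03 on PGC-1αf/f replicate 5 and -1.84 on nPGC-1α replicate 5. On PGC-1αf/f replicate 1 Hsd17b4 was low at 1.19, as was Acad11 at 0.25. The median deviation of the peroxisomal genes there was -0.36 over the 3 with a value, of which Hsd17b4 and Ehhadh were low and Acaa1a was at its highest. Slc16a3 was high on that array at -1.95, which brought it nearer to the nPGC-1α values.

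The other arrays apart each concerned 1 gene. Acad8 was low at 0.17 on PGC-1αf/f replicate 3, and on PGC-1αf/f replicate 5 Acad9 was high at 1.4 and Acat1 at 1.08. In nPGC-1α mice, Hsd17b10 was high at 2.47 and Acsl5 low at 1.3 on replicate 1, and Hadhb was high at 2.26 and Slc27a4 at -1.18 on replicate 5. Hadhb had 4 values in this group, and the other 3 were at 2.20.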

How the results depend on the processing

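No member passed an adjusted p of 0.05 in limma under any setting. At an unadjusted p of 0.05 there were 2 members, and 1 with quantile normalization, 1 with median scaling, 1 with normexp, 1 when outlier spots were kept and the brightest probe was chosen again (an alternative added after seeing the data), 4 with values raised to the highest floor, 4 with Y-linked transcripts as a covariate and 0 among the arrays without them. For all genes the count was 1445 (560 higher, 885 lower), and it was 834 (584 and 250) with quantile normalization, 841 (540 and 301) with median scaling, 579 (447 and 132) with normexp, 3714 (2627 and 1087) without the filter on dim probes, which tests more genes, and 582 among the 6 arrays without Y-linked transcripts. The median difference of the 38 members, -0.0525, was 0.018, 0.0179 and 0.0283 with quantile normalization, median scaling and normexp. That of the mitochondrial genes, -0.0923, was -0.0088 with normexp, and that of the ketone body genes, -0.0525, was 0.0549 with quantile normalization and 0.0736 with normexp. The cause was not tested. Leaving out 1 array gave a mitochondrial median of -0.1294 to -0.0567, a peroxisomal one of -0.0263 to 0.063, a ketone body one of -0.1 to 0.0274, and 2 or 3 members at an unadjusted p of 0.05.

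Of 976 differences of single members under the alternatives 963 kept their side of an unadjusted p of 0.05, and 78 turned in sign, none of a member that had passed. Bdh1 lost the threshold with quantile normalization, median scaling and normexp, and Acsl6 with the other probe. Both lost it on the arrays without Y-linked transcripts, of which only 2 were of nPGC-1α mice. The members that gained it were Acadl, Decr1, Acads, Hadhb and Etfb, all lower in nPGC-1α mice. Replicate numbers are shared between the groups, but same-numbered arrays deviated together at correlations of 0.0776 to 0.3559, 3 of the 5 pairs correlated best with their own number, and the labels tie the numbers to nothing. With the replicate number as a block, 3 members passed an unadjusted p of 0.05 (Acadl was added) and 0 the adjusted one, 2014 genes passed in all, and the medians were -0.0508 for the members, -0.0734 for the mitochondrial, -0.0018 for the peroxisomal and -0.0525 for the ketone body genes. The number of arrays, 5 per group, limits the precision.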

Other observations

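The mean correlation between pairs of the 19 mitochondrial genes with all 10 values, over deviations from the group means on these arrays, was 0.18, against 0.18 for the 5615 genes above the 75th percentile and 0.04 for the 14895 genes in all. Over the 30 members with all values it was 0.05. The mitochondrial genes include dim ones, such as Cpt1b, Acad10 and Slc25a20. These points share the same arrays and the same scaling, so the values are a description.

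Among the wider genes, a few had a low exact permutation p without passing an unadjusted p of 0.05 in limma, and the examples here were chosen after their values were seen. Hibch, which acts in valine breakdown, differed by -0.23 (exact permutation p = 0.0397), and the peroxisomal thioesterase Acot8 by -0.11 (exact permutation p = 0.0317).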
